A study of Mus musculus with 2 samples.

Results

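Ribosomal RNA synthesis and nucleolar processing were compared between C57BL/6 mouse embryos given siRNA to Dnmt1, which maintains DNA methylation, and embryos given scrambled siRNA. A single poly(A)-selected library stood for each group, made of 20 pooled embryos of 4 to 8 cells, so individual embryos were not resolved and no difference has a replicate check. The genes were chosen by name from the 23418 rows of the count table. All symbols beginning with Polr1, with Utp and a digit or with Nop and a digit were taken, together with Rn45s, Ubtf, Rrn3, Fbl, Ncl, Npm1, Dkc1, Nolc1, Nhp2, Gar1, Bop1, Pes1, Wdr12, Nip7 and Ebna1bp2. This gave 36 members, of which 34 averaged 20 counts or more across the libraries. Nop10 and Utp18 did not reach that mean.

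In the nucleolus RNA polymerase I transcribes the ribosomal DNA repeats into a long precursor, and the factors Ubtf and Rrn3 control its loading at the promoter. The small subunit processome, a large particle built around the U3 small nucleolar RNA, folds and cleaves the part of the precursor that becomes 18S RNA. Box C/D and box H/ACA ribonucleoproteins guide methylation of ribose and pseudouridylation of the precursor, and further factors assemble the large subunit. In the mouse, oocytes and zygotes hold compact nucleolus precursor bodies, and working nucleoli form during the cleavage stages.

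The libraries held 12236615 counts (siDnmt1) and 11675483 counts (scrambled), and 7670163 and 8187941 counts remained without Rn45s. Dnmt1 itself had 687 siDnmt1 counts and 847 scrambled counts and was thus 1.23-fold lower (interval of counting error 1.11 to 1.37). Its log2 ratio was -0.30, and 38.3% of the rows compared below were as low or lower. The difference is thus an ordinary one among those rows, and a knockdown of Dnmt1 RNA is not established by these counts. Of the 21 markers of early embryos, the siDnmt1 library held 3914 counts with 7 markers at 0, and the scrambled library held 6309 with 2 at 0. The 14 markers of cumulus and granulosa cells summed to 1712 and 1540 counts, nearly all of them from Nr5a2, which early embryos also express, and 10 and 12 of them were at 0. The 12 markers of blood and other somatic cells summed to 289 and 319 counts, with 9 at 0 in each library. In such pools fewer cells and less RNA per cell cannot be told apart.

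Among the 34 members compared, 7 were 2-fold or more lower in the siDnmt1 library and 0 were 2-fold or more higher. The rule was applied to log2((siDnmt1 + 5)/(scrambled + 5)), and no p-value can be had from 1 library per group. Of the 7315 rows with the same mean count, 16.7% passed the 2-fold limit downward and 12.5% passed it upward, so 20.6% of the members were lower against that background of 16.7%. The share of lower members is thus near that of all rows. The median log2 ratio of the members was -0.13, beside -0.02 for all compared rows, whose middle 50% spanned -0.67 to 0.57. Of the members, 20 lay inside that span, 12 below it and 2 above it. The 7 lower members were Nip7, Utp11l, Polr1c, Ncl, Nop16, Utp23 and Polr1d. The intervals given here are 95% Clopper-Pearson intervals of the plain count ratio, which cover counting error only and not the difference between pools of embryos. They treat each count as independent, although the libraries were amplified by 20 cycles of PCR without described molecular identifiers. They also leave out the choice of scaling: with equal library totals the log2 ratio of Nolc1 went from 0.08 to 0.01. By these intervals 15 members lay below equality, 11 above it and 8 included it. The same was not counted over all compared rows, so these counts have no background and cannot be read as particular to the members.

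**Figure D1:**
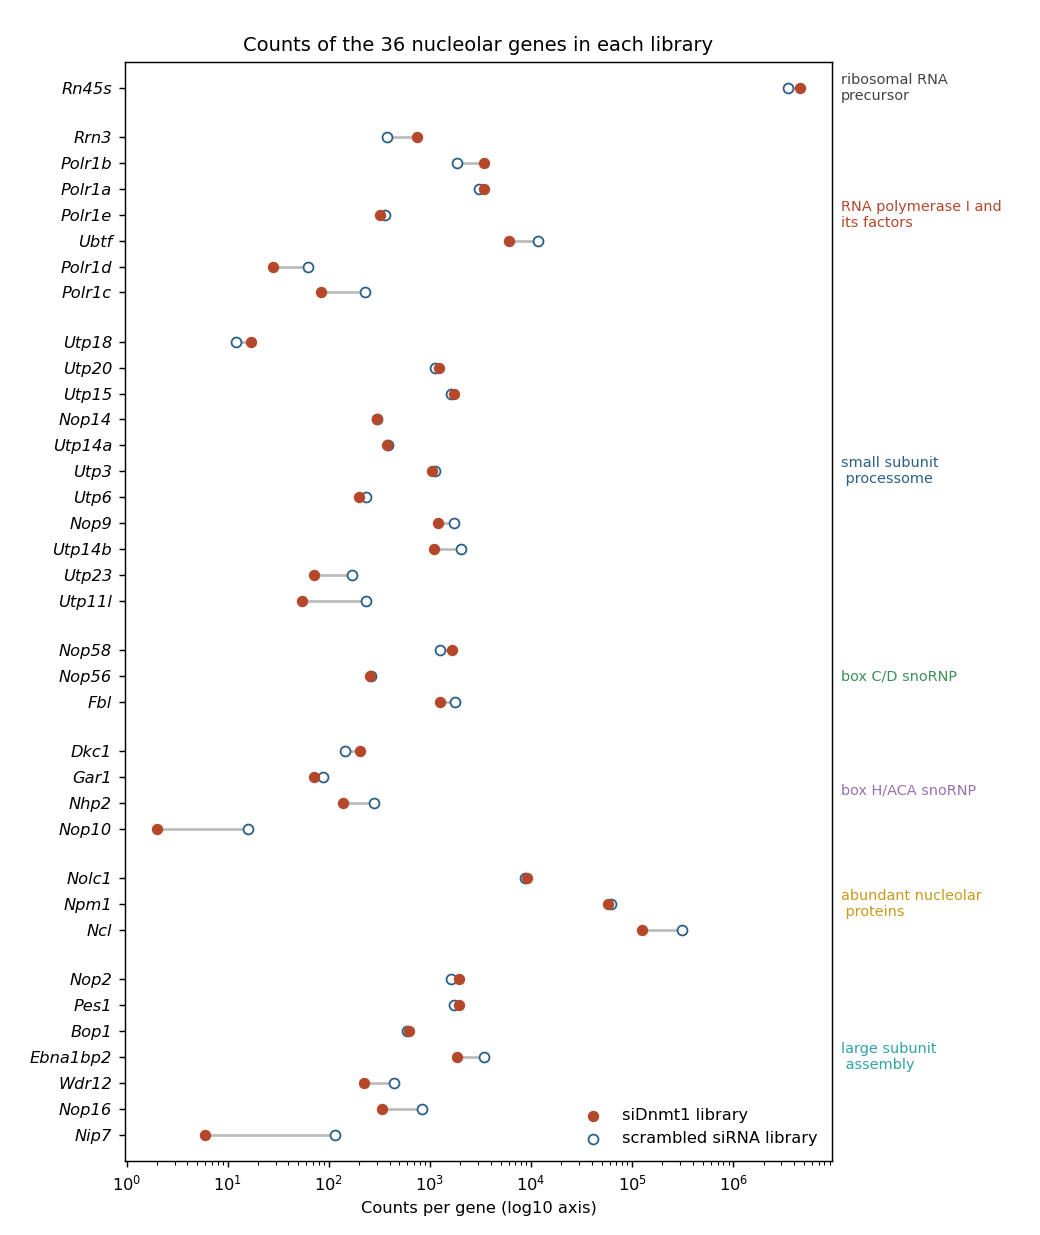
Counts of each of the 36 nucleolar genes (log10 axis) in the siDnmt1 library (filled points) and the scrambled siRNA library (open points), 1 library each, grouped by role. Rn45s lies far to the right at 4566452 and 3487542 counts, and the widest gap among the compared members is that of Nip7, with 6 and 115 counts.

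The ribosomal RNA of the pathway is represented by Rn45s, the row of the 45S ribosomal RNA precursor. Mature ribosomal RNA is cut from this precursor, so its reads could be counted in the same row. Precursor and mature RNA were not told apart, and the counts of Rn45s are not a measure of new synthesis. Rn45s had 4566452 siDnmt1 counts and 3487542 scrambled counts, a log2 ratio of 0.39. It took 37.3% of all siDnmt1 counts (interval 37.29 to 37.35) and 29.9% of all scrambled counts (29.84 to 29.90). The ratio of counts was 1.31, and 32.2% of the compared rows had a log2 ratio at least as high. Ribosomal RNA carries no poly(A) tail in general, so its reads in a library of oligo-dT-captured RNA also depend on how completely it was washed away, and the part of carry-over in this difference was not tested. How reads from the repeated ribosomal DNA units were counted is not given in the sources used here. Together, the other 35 members took 2.92% of the counts outside Rn45s in siDnmt1 (2.91 to 2.93) and 5.17% in scrambled (5.15 to 5.18). Ncl accounts for most of that gap. Without Ncl and Npm1 the remaining 33 members held 0.537% of the counts outside Rn45s in siDnmt1 and 0.587% in scrambled. Odc1 alone took 16.5% of the counts outside Rn45s in siDnmt1 and 24.5% in scrambled. Shares and levels set against that total therefore also depend on Odc1.

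**Figure D2:**
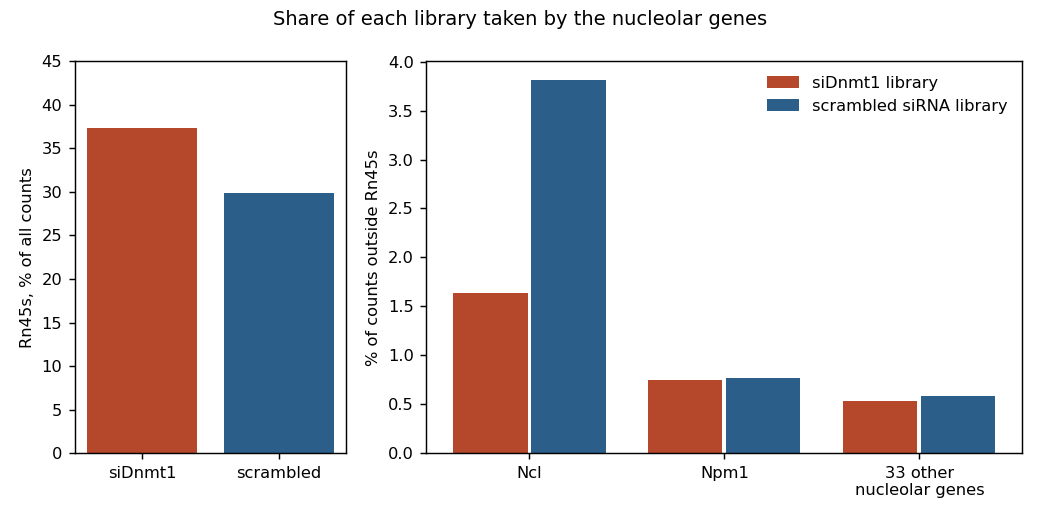
Share of each library taken by Rn45s (left, percent of all counts) and by Ncl, Npm1 and the 33 other nucleolar genes (right, percent of the counts outside Rn45s), with the siDnmt1 library left of the scrambled siRNA library in each pair and 1 library per bar. The Rn45s bars stand at 37.3% and 29.9%, and the Ncl bars at 1.63% and 3.81%.

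Ratios of RNA polymerase I and its factors ran in both directions. Of these 7 members 2 (28.6%) passed the 2-fold limit downward, beside 16.7% of all compared rows. The highest log2 ratios of all 34 members belonged to the same group. Rrn3, the factor also called TIF-IA that makes the polymerase competent to initiate, had 752 siDnmt1 counts and 380 scrambled counts. It was 1.98-fold higher (1.75 to 2.24), just short of the 2-fold rule. Polr1b, which forms the catalytic centre with Polr1a, had 3468 against 1872 counts, which was 1.85-fold higher (1.75 to 1.96). Polr1a, the largest subunit, stayed near equality with 3438 counts in siDnmt1 and 3084 in scrambled (ratio 1.11, 1.06 to 1.17). As a level per kilobase of coding sequence and 1000000 counts outside Rn45s, Polr1b stood at 133 in siDnmt1 and 67.1 in scrambled, and Polr1a at 87.0 and 73.1. On this scale Polr1b was thus above Polr1a in the siDnmt1 library and slightly below it in the scrambled library. The principal transcript of Polr1a has 9216 nt (5151 nt coding) and that of Polr1b has 3998 nt (3405 nt coding). Per length of principal transcript Polr1b would stand above Polr1a in both libraries, so the order depends on the length used.

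Ubtf, the HMG-box factor that coats active ribosomal DNA, had 6064 siDnmt1 counts and 11859 scrambled counts. It was 1.96-fold lower (1.90 to 2.02), opposite in direction to Rrn3. Its log2 ratio of -0.97 lay close to the 2-fold limit, and 17.3% of the compared rows were as low or lower. Polr1c, a subunit shared with RNA polymerase III, had 83 against 231 counts, which was 2.78-fold lower (2.16 to 3.62). Polr1d, its partner in the same shared assembly, had 28 against 63 counts, which was 2.25-fold lower (1.42 to 3.65). The pair shared between the polymerases therefore lay on the low side in both cases. Polr1e, a subunit particular to RNA polymerase I, had 325 counts against 360 (ratio 0.903), with an interval of 0.775 to 1.05 that includes equality.

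Promoter windows from RefSeq (build GRCm38.p6), which run from 250 bases before to 50 bases after the annotated start, were read for 29 of the members. They were searched for the E-box CACGTG, the motif bound by Myc and other factors, which reads the same on both strands and cannot overlap itself. It is shown because Rrn3, the member with the highest log2 ratio, holds 2 copies of it, starting at positions -215 and -48 from the annotated start, and because Nip7, the lowest, holds 0. Capitals mark the E-box in the windows that follow. The window of Rrn3 lies on the plus strand at chr16:13780449-13780748 and that of Nip7 on the plus strand at chr8:107056627-107056926.
Rrn3: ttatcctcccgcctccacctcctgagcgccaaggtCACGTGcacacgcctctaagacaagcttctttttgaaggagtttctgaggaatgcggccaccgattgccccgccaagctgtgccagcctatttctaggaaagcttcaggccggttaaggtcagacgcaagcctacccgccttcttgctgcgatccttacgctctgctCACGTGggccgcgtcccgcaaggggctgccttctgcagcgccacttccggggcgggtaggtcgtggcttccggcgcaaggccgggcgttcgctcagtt
Nip7: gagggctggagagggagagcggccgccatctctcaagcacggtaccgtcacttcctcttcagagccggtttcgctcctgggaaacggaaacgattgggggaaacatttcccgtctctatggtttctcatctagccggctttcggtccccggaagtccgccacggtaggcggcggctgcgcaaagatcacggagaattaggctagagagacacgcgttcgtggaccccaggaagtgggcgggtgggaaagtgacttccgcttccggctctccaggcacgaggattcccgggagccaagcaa

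Across the members 6 of 29 genes (20.7%) had an E-box in at least 1 window, beside 12.6% of 5830 genes among the compared rows. Counted by window these were 6 of 36 member windows (16.7%), 10.4% of the 7503 windows of compared rows and 7.15% of all 32851 windows in the table. The other 5 genes with the motif are given as the E-box with its flanks, read along the gene. Utp14b lies on the plus strand at chr1:78658365-78658394, Nop2 on the plus strand at chr6:125131811-125131840 and Pes1 on the plus strand at chr11:3963965-3963994. Utp20 lies on the minus strand at chr10:88826765-88826789 and Utp18 on the minus strand at chr11:93885769-93885798.
Utp14b: cgcgggcgcgggCACGTGggtggggtcgtc
Nop2: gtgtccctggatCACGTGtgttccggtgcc
Pes1: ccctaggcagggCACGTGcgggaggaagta
Utp20: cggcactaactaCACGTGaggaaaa
Utp18: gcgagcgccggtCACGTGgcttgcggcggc

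The genes with an E-box did not share a direction. Rrn3 was 1.98-fold higher, Utp14b was 1.83-fold lower, and Nop2, Pes1 and Utp20 had log2 ratios of 0.27, 0.16 and 0.14. Utp18 did not reach the mean of 20 counts. CpG dinucleotides numbered 25 in the window of Rrn3 and 26 in that of Nip7. The median was 22 CpG over the member windows and 22 over the windows of the compared rows. A motif match is a description of the letters and not of a bound factor.

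The small subunit processome stayed mostly near equality, with 2 (20%) of its 10 compared members past the 2-fold limit downward and 0 upward. Over all compared rows 16.7% passed it downward and 12.5% upward. Utp11l, known in yeast as a component of the U3 particle, had 54 siDnmt1 counts and 234 scrambled counts. It was 4.33-fold lower (3.21 to 5.94), and 4.43% of the compared rows were as low or lower. Utp23, which in yeast belongs to the same particle, had 72 against 170 counts, which was 2.36-fold lower (1.78 to 3.16). An antisense-strand gene shares 11.5% of the annotated exon bases of Utp23, and without a stated strand setting its counts are uncertain.

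Among the other processome members, Utp20, Utp15 and Nop14 lay close to equality. Utp20, a very large protein of the particle, had 1244 counts in siDnmt1 and 1129 in scrambled (ratio 1.10, 1.02 to 1.20). Utp15, in yeast a subunit of the early UtpA complex, had 1748 against 1619 (ratio 1.08, 1.01 to 1.16). Nop14, an 18S processing factor in yeast, had 301 counts in each library. These 3 ratios differ from 1 by little even where counting error alone would resolve it. Utp3 had 1045 against 1131 counts and Utp6, in yeast a subunit of the UtpB complex, had 197 against 236, and both intervals include equality. Nop9, in yeast an RNA-binding factor of the 18S precursor, had 1203 against 1715 counts, which was 1.43-fold lower (1.32 to 1.54). The gene Cideb on the opposite strand shares 29.9% of the exon bases of Nop9, so its counts are uncertain. Utp18, below the mean filter, had 17 counts in siDnmt1 and 12 in scrambled, a ratio whose interval runs from 0.638 to 3.25.

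The processome also holds a pair of near copies. Utp14a lies on the X chromosome, and Utp14b is an autosomal retrocopy of it that is required for spermatogenesis in the mouse. Utp14a had 376 siDnmt1 counts and 387 scrambled counts (ratio 0.972, 0.841 to 1.12), and a gene on the opposite strand shares 11.5% of its exon bases. Utp14b had 1112 against 2035 counts, which was 1.83-fold lower (1.70 to 1.97). Per kilobase of coding sequence and 1000000 counts outside Rn45s, the level of Utp14b was 62.0 in siDnmt1 and 106 in scrambled, against 21.3 and 20.5 for Utp14a. On this scale the retrocopy was thus the more abundant in both libraries, and it was the copy whose counts differed between them. The principal transcript of Utp14b has 7393 nt (2340 nt coding) and that of Utp14a has 2507 nt (2301 nt coding). Per length of principal transcript the copies would stand level in siDnmt1, with Utp14b above in scrambled only. Reads that match both copies could be counted for either or neither, and Utp14b shares 3.18% of its exon bases with Acsl3, so this split is uncertain.

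The box C/D proteins were all within 2-fold, in both directions. Fbl, the methyltransferase fibrillarin, had 1257 counts in siDnmt1 and 1763 in scrambled and was 1.40-fold lower (1.30 to 1.51). Its log2 ratio of -0.49 turned to 0.31 with the trend for principal transcript length removed, and was -0.33 and -0.30 with those for the longest transcript and coding length. Nop58, a scaffold protein of the particle, had 1638 against 1263 counts, which was 1.30-fold higher (1.20 to 1.40). Nop56, its partner scaffold, had 254 against 262 (ratio 0.969, 0.813 to 1.16). On the scale per coding kilobase and 1000000 counts outside Rn45s, Fbl stood at 167 in siDnmt1 and 219 in scrambled, Nop58 at 160 and 116, and Nop56 at 19.0 and 18.4. Nop56 was thus the scarce message of the 3 in each library, although the proteins work in 1 particle. Other annotated genes, Snord57 among them, lie inside the exons of Nop56, the largest sharing 2.44% of its exon bases.

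Of the box H/ACA proteins, Dkc1 had more siDnmt1 counts and its partners fewer. The trend of log2 ratios with transcript or coding length was taken as a lowess curve over all compared rows. With that trend removed the contrast narrowed for Nhp2 and Gar1, but Nhp2 stayed below Dkc1, and Nop10 has no such value. Dkc1, the pseudouridine synthase dyskerin, had 203 counts in siDnmt1 and 145 in scrambled and was 1.40-fold higher (1.13 to 1.74). Nhp2 had 137 against 278 counts, which was 2.03-fold lower by plain counts (1.65 to 2.51), with a log2 ratio of -0.99 that just misses the 2-fold rule. Gar1 had 71 against 88, and its interval includes equality. Nop10, a very small protein, had 2 counts in siDnmt1 and 16 in scrambled, a plain ratio of 0.125 (interval 0.0139 to 0.532), and did not reach the mean filter. The 3 partners have coding sequences of 192 to 693 nt, and Dkc1 has 1527 nt. With the trend for the longest, the principal or the coding length removed, the log2 ratio of Nhp2 was 0.02, -0.06 or -0.39, and that of Gar1, -0.29 as reported, turned to 0.52, 0.44 or 0.10. Dkc1 stayed between 0.48 and 0.55.

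**Figure D3:**
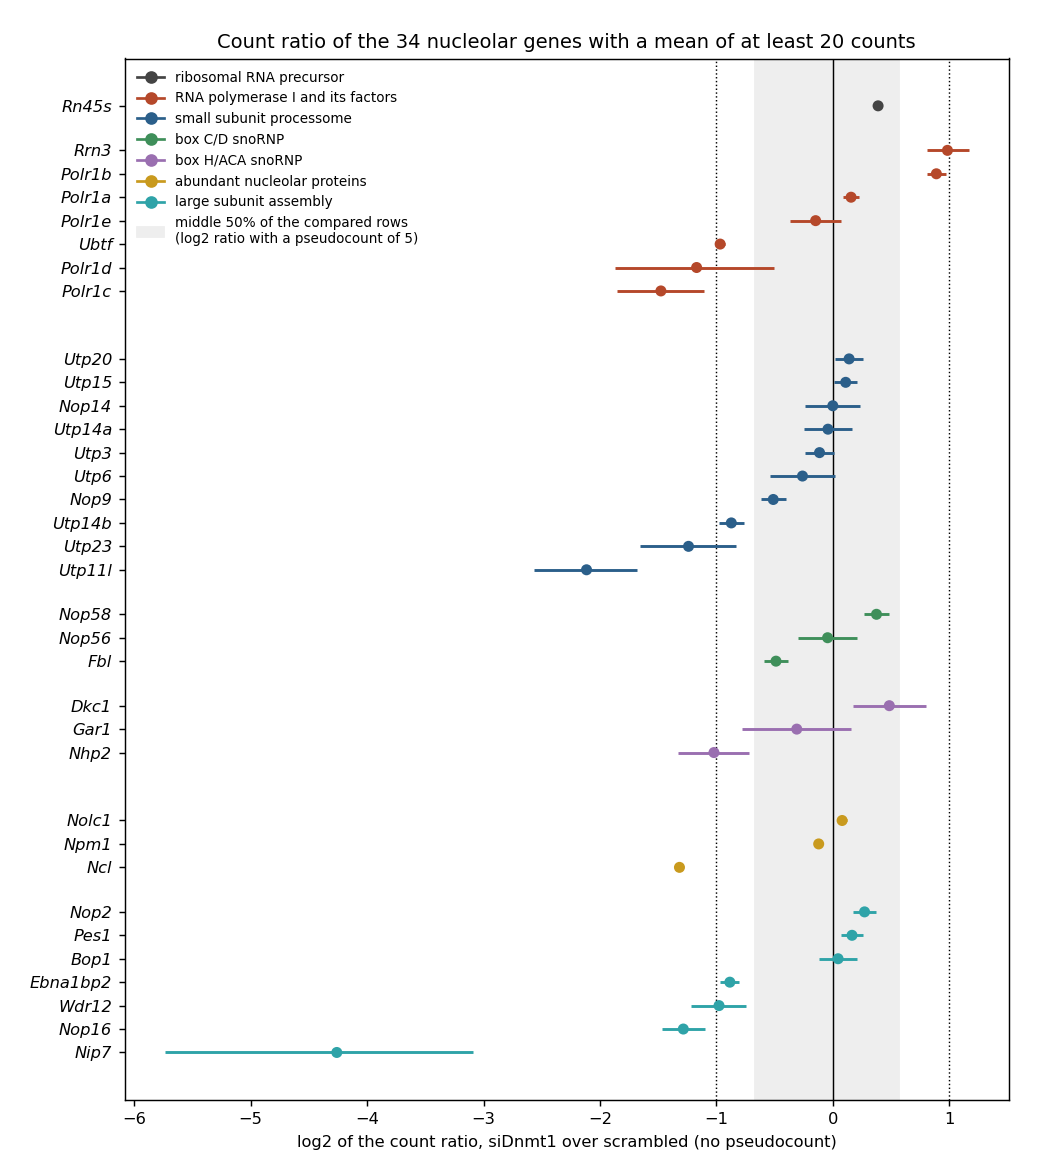
Log2 of the plain count ratio, siDnmt1 over scrambled siRNA, for the 34 nucleolar genes that averaged 20 counts or more, coloured by role, with bars for the 95% interval of counting error and dotted lines at 2-fold. The grey band is the middle 50% of the 7315 compared rows (-0.67 to 0.57 on the log2 scale with a pseudocount of 5), and Rrn3 and Polr1b are the 2 points to its right.

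The abundant nucleolar proteins differed among themselves. Ncl, nucleolin, which binds the precursor and chaperones its early processing, had 125324 siDnmt1 counts and 312275 scrambled counts. It was 2.49-fold lower (2.48 to 2.51), and 11.1% of the compared rows had a log2 ratio as low or lower. Its share of the counts outside Rn45s was 1.63% in siDnmt1 and 3.81% in scrambled. Npm1, nucleophosmin, had 57560 against 62610 counts (ratio 0.919, 0.909 to 0.930), and its share was 0.750% against 0.765%. The near equality of these shares depends on the Odc1 counts in the totals. The log2 ratio of Npm1, -0.12 as reported, turned to between 0.17 and 0.39 with the length trends removed. Nolc1, a chaperone that binds small nucleolar ribonucleoproteins, had 9159 against 8665 counts and a log2 ratio of 0.08.

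The order of Ncl and Npm1 depended on the scale, and by plain counts Ncl was above Npm1 in both libraries. Per coding kilobase and 1000000 counts outside Rn45s, Ncl stood at 7704 in siDnmt1 and 17981 in scrambled, while Npm1 stood at 8567 and 8729. The principal transcript of Ncl has 8202 nt (2121 nt coding) and that of Npm1 has 1633 nt (876 nt coding). Per length of principal transcript Npm1 would stand above Ncl in siDnmt1 and close to it in scrambled, so a change of order is not established. Ncl supplied 55.9% of the counts of the 35 members other than Rn45s in siDnmt1 and 73.8% in scrambled. Npm1 has processed pseudogene copies in the mouse genome, which makes its counts uncertain.

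Large subunit assembly held the member with the lowest log2 ratio. Nip7, a small protein needed for maturation of the large subunit in yeast, had 6 counts in siDnmt1 and 115 in scrambled and was 19.2-fold lower (8.54 to 53.3). In all, 0.684% of the compared rows were as low or lower. Nop16, in yeast a constituent of early large subunit particles, had 340 against 828 counts, which was 2.44-fold lower (2.14 to 2.77). Ebna1bp2, the counterpart of yeast Ebp2, had 1850 against 3415 counts, which was 1.85-fold lower (1.74 to 1.95). These 3 members lay below the middle 50% of all rows.

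The PeBoW complex, in which Pes1, Bop1 and Wdr12 act together in maturation of the large subunit RNA, was uneven. Pes1 had 1944 counts in siDnmt1 and 1734 in scrambled (ratio 1.12, 1.05 to 1.20). Bop1 had 616 against 597, with an interval of 0.920 to 1.16 that includes equality. Wdr12 had 225 against 443 counts, which was 1.97-fold lower (1.67 to 2.32). Thus 1 of the 3 partners was near 2-fold lower while the others lay within 1.25-fold. Nop2, a methyltransferase of the large subunit RNA, had 1952 against 1616 counts, which was 1.21-fold higher (1.13 to 1.29).

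Gene size went with these differences. Of the 11 compared members with a coding sequence under 1200 nt, 6 were at least 2-fold lower, against 1 (Ncl) of the 22 with 1200 nt or more. All compared rows showed the same tendency: 26.2% of 2362 rows under 1200 nt were at least 2-fold lower, against 11.7% of 4821 longer ones. The median log2 ratio of the short members was -1.04, beside -0.33 for all short rows, and that of the longer members was 0.02, beside 0.09 for all longer rows. After the trend with coding length was removed, Nip7, Utp11l, Polr1c and Ncl remained at least 2-fold lower, with log2 values of -2.93, -1.66, -1.28 and -1.43. Nop16, Utp23 and Polr1d then stood at -0.75, -0.82 and -0.36, and Ubtf at -1.09. Removal of the trend with principal transcript length instead gave -0.73 for Polr1c and -1.15 for Utp23, so the calls of these 2 depend on which length is used. The part of transcript length in these differences was not tested further.

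**Figure D4:**
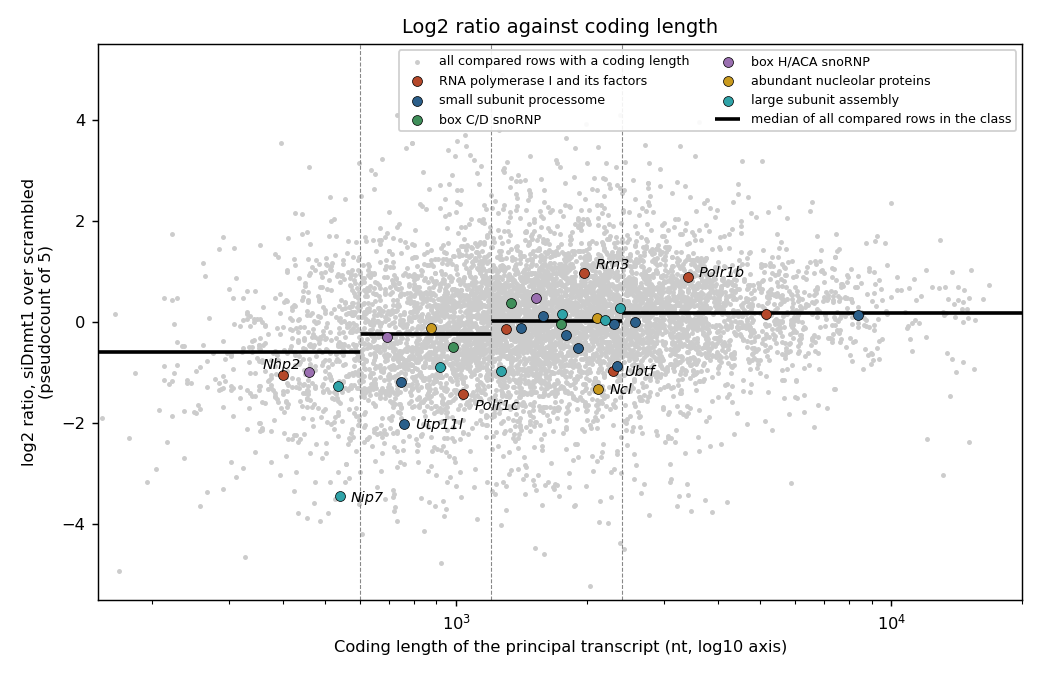
Log2 ratio (siDnmt1 over scrambled siRNA, pseudocount of 5) against the coding length of the principal transcript (nt, log10 axis) for all compared rows (grey) and the nucleolar genes (coloured by role). Black bars are the medians of all rows under 600 nt (-0.59), from 600 to 1200 nt (-0.24), from 1200 to 2400 nt (0.03) and from 2400 nt (0.18), and Nip7 lies at the lowest level of the coloured points.

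Other genes of ribosome production were examined by role. Outside the lists for RNA polymerase III, RNase P and RNase MRP, 119 such genes were compared (a gene in several lists counted once). Of these 6 (5.04%) passed the 2-fold limit upward and 19 (16.0%) downward, and their median log2 ratio was -0.06. Over all compared rows 12.5% passed it upward and 16.7% downward, the background for each list that follows. The downward share of the 119 genes is thus near that of all rows, and the upward share is below it. The other subunits and regulators of RNA polymerase I had 3 of 16 at least 2-fold lower and 0 higher. Taf1c, a subunit of the promoter selectivity factor, had 25 counts in siDnmt1 and 72 in scrambled (2.88-fold lower), and Polr2e, a subunit of all 3 nuclear polymerases, had 45 against 123 (2.73-fold lower). The call of Polr2e ended with the trend for principal transcript length (log2 -0.51) or coding length (-0.92) removed. Baz2a, the large subunit of the complex that silences ribosomal DNA, had 26721 against 15307 counts (1.75-fold higher, 1.71 to 1.78), and its partner Smarca5 had 5258 against 3112 (1.69-fold higher, 1.62 to 1.77).

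The rest of the small subunit processome had 2 of 29 genes higher and 2 lower, with a median log2 ratio of 0.22. Mphosph10, a U3 particle protein, had 833 against 378 counts (2.20-fold higher), and Rcl1 had 63 against 28 (2.25-fold higher). Emg1, an 18S methyltransferase, had 12 against 71 (5.92-fold lower), and Ngdn had 14 against 39 (2.79-fold lower). With the length trends removed Ngdn stood at log2 values of -0.33 to -0.99, short of 2-fold, and Emg1 at -1.22 to -2.25. Late factors of the small subunit had a median of -0.72 over 14 genes, with 4 lower and 0 higher. With the trend for the longest, the principal or the coding length removed, that median was -0.55, -0.49 or -0.63. Pno1, which works with the nuclease that makes the 18S end, had 151 against 1056 counts and was 6.99-fold lower (5.89 to 8.35), and Tsr3 was 4.25-fold lower, a call that ended with the trend for the longest (log2 -0.70) or principal (-0.78) transcript removed. Lyar and Bysl were 1.92-fold and 1.65-fold higher.

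The further large subunit factors had 8 of 48 genes lower and 2 higher, with a median of 0.03. Noc3l was 2.26-fold and Ftsj3 2.15-fold higher, and Ngrn, known in human cells from the ribosomal RNA of mitochondria, had 9 against 77 counts (8.56-fold lower) and Eftud1, a release factor of late particles, 22 against 80 (3.64-fold lower). Among other genes of ribosomal RNA modification 2 of 13 were higher and 2 lower. Nat10, the acetyltransferase of 18S RNA, had 519 against 187 counts (2.78-fold higher, 2.34 to 3.30), Wbscr22 was 2.46-fold higher, Nsun5, a methyltransferase of the large subunit RNA, had 40 against 203 (5.08-fold lower), and Trmt112 was 2.43-fold lower. With the length trends removed Trmt112 stood at log2 values of -0.04 to -0.39, short of 2-fold. RNA polymerase III and its factors, which make 5S ribosomal RNA and transfer RNA, had 1 of 18 higher and 1 lower and a median of -0.14, close to the -0.13 of the nucleolar members. Polr3g had 908 against 395 counts (2.30-fold higher) and Gtf3c2 was 1.77-fold higher, while Gtf3c3 had 130 against 372 (2.86-fold lower) and Polr3e was 1.94-fold lower.

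**Figure D5:**
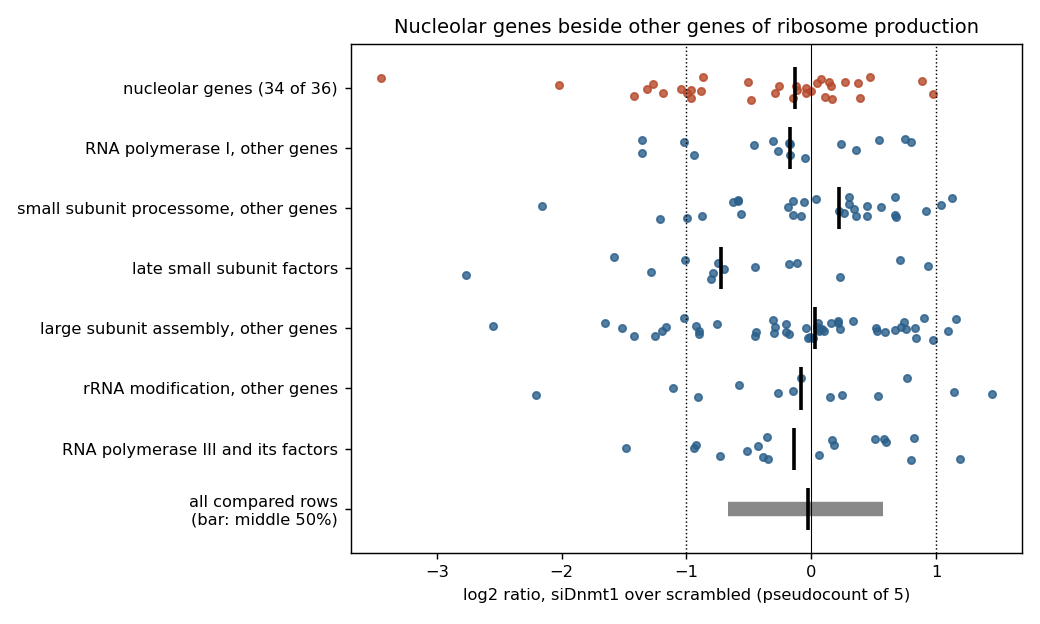
Log2 ratio (siDnmt1 over scrambled siRNA, pseudocount of 5) of each compared gene in the nucleolar set (34 of 36) and in 6 lists of other genes of ribosome production, with black bars for medians and dotted lines at 2-fold. The late small subunit factors have the lowest median (-0.72) and the other processome genes the highest (0.22), and the grey bar of all compared rows spans -0.67 to 0.57.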

How the data were processed

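RNA was captured on oligo-dT beads, copied by pico-profiling and amplified by 20 cycles of PCR without described molecular identifiers, per the labels' protocols. The authors deposited counts per gene for 23418 rows. Trim Galore, HISAT2, HTSeq, DESeq2 and mm9 are named in the submitters' processing notes, without versions. How multiply matching reads, strand and annotation were handled was not given in the sources used here. By its name the file is normalised, but 0 whole numbers from 1 to 59 were skipped in either column, so the values were taken as unscaled counts within the limits of that check. DESeq2 size factors computed from the table were 1 for both libraries, so scaling by them changed no value, and unscaled values and values scaled by factors near 1 cannot be told apart.

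With 1 library per group no model could be fitted. Log2 ratios used a pseudocount of 5 for rows with a mean of at least 20 counts. Every member is accounted for, and other lists are named by their 2 highest and 2 lowest genes, some of which are not reported here. The members and lists were chosen with earlier results of these data known. Lengths came from GENCODE M21 (GRCm38, a different build, so used for lengths, exon overlap and names): the longest transcript for 99.4% and the principal transcript for 98.2% of compared rows. Lowess trends had a span of 0.3. Alternatives were other pseudocounts, filters, scalings (including edgeR TMM), length trends and a 4-fold rule. Rows with names turned into dates (27) were not named. Software was R 4.3.3 with edgeR 4.0.16 and DESeq2 1.42.0, and Python 3.11.15 with matplotlib 3.10.9, statsmodels 0.14.6, scipy 1.17.1, pandas 2.3.3 and numpy 2.4.6.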

Additional observations from a re-analysis of the deposited data

How the results depend on the processing

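The count of 7 members at least 2-fold lower ranged from 5 to 10 over the pseudocounts, filters, scalings and length trends tried, and was 2 (Nip7 and Utp11l) under a 4-fold rule. The members at least 2-fold higher numbered 0 in each of these except with equal totals without Rn45s and with the median log2 ratio set to 0, where Rrn3 made it 1. With equal library totals Nhp2, Ubtf and Wdr12 also passed the 2-fold limit downward, which gave 10. The members' median log2 ratio of -0.13 ranged from -0.20 (equal totals) to -0.04 (equal totals without Rn45s). Length trends on principal transcripts and coding lengths, and the median without Rn45s, Ncl and Npm1 (-0.15), were added after the data were seen. Set against totals without Odc1, the row with the most counts after Rn45s, Rn45s took 41.6% of the siDnmt1 and 36.1% of the scrambled counts. Over all rows, 911 higher and 1221 lower became 1682 and 2122 with no filter, 395 and 482 at a mean of at least 100 counts, and 193 and 330 under the 4-fold rule. Of the members at least 2-fold apart, 0 changed sign. Length trends turned the sign of 12 members short of 2-fold: Nhp2, Gar1, Fbl, Npm1, Utp3, Polr1a, Utp20, Utp15, Utp14a, Nop56, Bop1 and Nolc1. Ubtf passed 2-fold under all 3 length trends, and Wdr12 and Utp14b under those for transcript length. Among other genes, Ftsj3 lost its call under the coding length trend, Rcl1 and Akt1 with equal totals, and Ngdn, Rcl1, Tsr3, Trmt112, Wbscr22 and Akt1 with a pseudocount of 20. No paired analysis was possible because each group has 1 library. Members with few counts, such as Nop10, Utp18 and Polr1d, are limited by depth.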

Other observations

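Genes that control growth and ribosome production from outside the nucleolus were also listed. Of 15 compared genes, 2 (13.3%) passed the 2-fold limit upward in the siDnmt1 library and 0 downward, with a median log2 ratio of 0.14. Over all compared rows 12.5% passed it upward and 16.7% downward, so the share of higher genes is near that background. Akt1, a kinase of growth factor signalling, had 270 counts in siDnmt1 and 128 in scrambled (2.11-fold higher, 1.70 to 2.62). Myc, a regulator of many nucleolar genes, had 162 against 241 counts and was 1.49-fold lower (1.21 to 1.83), but its log2 ratio was 0.09 with the trend for principal transcript length removed. The members of this list have long principal transcripts, with a median of 5099 nt, and its median was 0.02 after the trend with principal transcript length was removed.

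The protein genes of RNase P and RNase MRP, of which the MRP enzyme cuts the ribosomal RNA precursor, gave 4 compared genes of 12, all with fewer counts in the siDnmt1 library. Rpp38 had 109 counts in siDnmt1 and 246 in scrambled (2.26-fold lower, 1.79 to 2.85), and Rpp14, Pop4 and Pop1 were 2.00-fold, 1.54-fold and 1.33-fold lower. With the length trends removed Rpp38 stood at log2 values of -0.12 to -0.82, short of 2-fold, and Rpp14 at 0.65 under that for principal transcript length. Host genes of small nucleolar RNAs were looked at after the data were seen. Gas5 had 79 against 226 counts (2.86-fold lower, 2.20 to 3.74), Snhg5 had 41 against 201 (4.90-fold lower, 3.49 to 7.04), and Snhg11 had 103 against 43 (2.40-fold higher, 1.66 to 3.50).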
